A study of Mus musculus and Homo sapiens with 10 samples.

Results

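The Iroquois genes IRX1 to IRX6 encode homeodomain transcription factors, and this report describes the sites of UBF and RNA polymerase I (Pol I) around them in human mammary epithelial cells. The members are called peaks, selected on the position of their centre in 2 windows: chromosome 5 from 1850000 to 3650000, for IRX4, IRX2 and IRX1, and chromosome 16 from 54300000 to 55400000, for IRX3, IRX5 and IRX6. The windows hold 54 of the 51046 peaks of the 3 human lists. Of these, 23 of 9478 are UBF peaks of HMEC, 26 of 32274 are UBF peaks of HMLER, and 5 of 9294 are Pol I peaks of HMEC. The chromosome 5 window, of 1.8 Mb, holds 36 peaks and the chromosome 16 window, of 1.1 Mb, holds 18.

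The study used ChIP-seq, in which DNA bound by a protein is recovered with an antibody and sequenced. HMEC are primary mammary epithelial cells immortalized by TERT, the catalytic subunit of telomerase. HMLER is an isogenic line made from HMEC. Besides TERT it expresses SV40 large-T and an oncogenic allele of HRAS, labelled HRASV12G. Both lines thus carry TERT. Both were harvested while growing exponentially. The UBF antibody recognises UBF1/2, and the Pol I antibody the largest Pol I subunit, POLR1A. Each list stands for 1 sample, Pol I was mapped in HMEC but no HMLER Pol I list was analysed here, and the cell type of the lines was not checked, since peak lists measure no expression.

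UBF is an HMG-box protein that binds the ribosomal RNA genes, keeps their chromatin open and helps Pol I to start transcription. The Iroquois factors belong to the TALE class of homeodomain proteins and pattern the embryo. IRX4 is known for its expression in the ventricles of the heart. IRX3 and IRX5 act together in heart and limb, and IRX5 and IRX6 act in retinal neurons. IRX1 and IRX2 are expressed in lung and limb, and IRX2 also in mammary epithelium. The genes lie in a pair of clusters, with long stretches of noncoding DNA between them. In the mouse RefSeq gene table of GRCm38, Irx1, Irx2 and Irx4 follow one another on one chromosome, Irx3, Irx5 and Irx6 on another, with 0 protein-coding genes between neighbours. No human gene annotation of hg19, the human build named in the submitters' processing notes, was used here, so peaks are identified by position and none is assigned to a single IRX gene. The order of genes used below is that of the rule, IRX4, IRX2, IRX1 on chromosome 5 and IRX3, IRX5, IRX6 on chromosome 16. No sequences are printed for the same reason.

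The lists give each peak's chromosome, start and end, with no score and no read count. The depth behind a peak is therefore unknown, and 1 list per antibody and line leaves nothing to estimate error from, so the lines were compared without a test. The positions that chose the members also set every overlap and density below, so all values are descriptions. The interval after a share is the Clopper-Pearson (exact binomial) one at 95%. Such intervals cover counting error only, and neighbouring peaks are not independent.

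UBF peaks of HMEC were denser in both Iroquois windows than over their list as a whole, and UBF peaks of HMLER were not denser in number, though they covered more of the chromosome 5 window. The HMEC list had 8.33 peaks per Mb in the chromosome 5 window and 7.27 per Mb in the chromosome 16 window, against 3.09 per Mb over all chromosomes. HMLER UBF had 10.6 and 6.36 peaks per Mb, against 10.5 over all chromosomes. HMEC Pol I had 1.11 and 2.73 peaks per Mb, against 3.03. Over the whole chromosomes HMEC UBF had 2.68 peaks per Mb on chromosome 5 and 4.41 on chromosome 16, both below the windows. HMLER UBF had 9.95 on chromosome 5, close to the window, and 14.2 on chromosome 16, above the window. By covered length, HMEC UBF took up 1.07% of the chromosome 5 window and 0.53% of the chromosome 16 window, against 0.171% over all chromosomes. HMLER UBF took up 2.02% and 1.3%, against 1.25%. When the chromosomes were tiled in fixed steps of the window's length, 8.11% of 1690 tiles held at least the 15 HMEC UBF peaks of the chromosome 5 window. For the 8 of the chromosome 16 window the share was 14.5% of 2772 tiles. For HMLER UBF the shares were 34.9% (19 or more peaks) and 47.9% (7 or more). For HMEC Pol I they were 80.7% (2 or more) and 47.5% (3 or more).

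The number of UBF peaks was nearly equal in the 2 lines at the Iroquois clusters, although the HMLER list as a whole is longer. HMLER had 1.27 times as many UBF peaks as HMEC in the chromosome 5 window (19 against 15) and 0.875 times as many in the chromosome 16 window (7 against 8). Over the whole lists the ratio was 3.41. Among the 137 tiles with at least 15 HMEC peaks, the median ratio was 3.17, and 6.57% had a ratio as low as the chromosome 5 window. Among the 403 tiles with at least 8, the median was 2.88, and 4.47% were as low as the chromosome 16 window. The covered length was also closer than elsewhere: HMLER peaks covered 36353 bp on chromosome 5 against 19246 bp in HMEC, and 14299 bp against 5832 bp on chromosome 16. These are ratios of 1.89 and 2.45, and the whole lists gave 7.29. Thresholds and depths of the lists are unknown, and their part in these ratios was not tested.

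**Figure D1:**
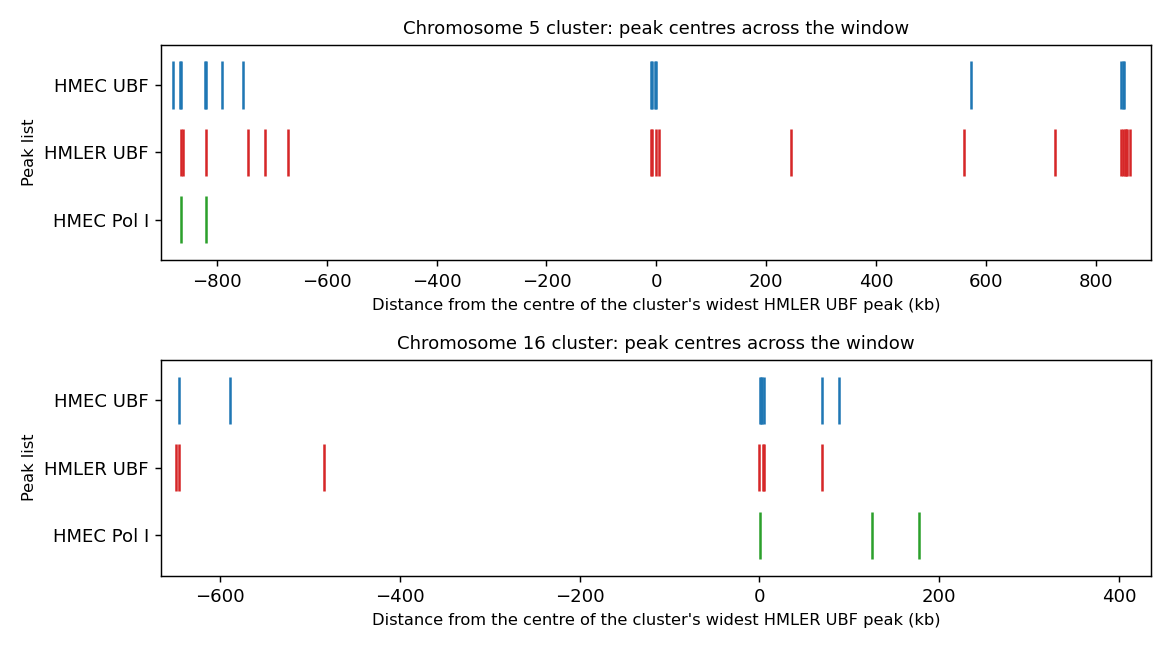
Peak centres of the 3 lists (rows, 1 mark per peak) across the chromosome 5 window (top) and the chromosome 16 window (bottom), as the distance in kb from the centre of the widest HMLER UBF peak of each cluster. HMLER UBF marks bunch at 3 places on chromosome 5 and 2 on chromosome 16, each with 1 to 4 HMEC UBF marks. Empty stretches reach 659 kb and 481 kb. The 5 Pol I marks lie at the left end on chromosome 5 and in the right-hand part on chromosome 16.

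UBF lay in compact groups along the clusters, as it did over the whole HMLER list. HMLER UBF peaks with less than 20 kb between neighbours were joined into groups, and 5 groups held 2 or more peaks, 3 on chromosome 5 and 2 on chromosome 16. These 5 groups span 59.5 kb, 2.05% of the 2 windows, and held 17 of the 26 HMLER peaks, 14 of the 23 HMEC UBF peaks and 2 of the 5 Pol I peaks. The share of HMLER peaks in such groups was 65.4% in the clusters and 66.2% over all chromosomes, where the groups span 4.18% of the length. For HMEC UBF and Pol I the share over all chromosomes was not computed, so their counts cannot be set against their lists. The other 9 HMLER peaks stood alone. In fixed bins of 100 kb, 10 of the 19 bins of the chromosome 5 window and 7 of the 11 of the chromosome 16 window had no UBF peak of either line. That is 56.7% of the 30 bins, and over all chromosomes it was 56.5% of 30635.

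The longest stretch without UBF in either line ran on chromosome 5 from 2079766 to 2739044 (659 kb). On chromosome 16 it ran from 54481040 to 54962283 (481 kb). The next on chromosome 16 was the end of the window, from 55054105 to 55400000 (346 kb), the end at which the rule lists IRX6. For 1 line alone the longest gap cannot be shorter than for both together. For HMLER UBF it was the same, 659 kb and 481 kb. For HMEC UBF it was 740 kb on chromosome 5 and 588 kb on chromosome 16. The empty end of the chromosome 16 window depends on where the window stops: the nearest HMLER UBF peak beyond it, from 55404734 to 55405488, has its centre 5.11 kb outside.

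At the start of the chromosome 5 window, the end at which the rule lists IRX4, HMEC UBF was split into several peaks where HMLER had 1 wide one. The HMLER peak ran from 1882322 to 1888284, 5962 bp, and ranked 32nd by width of its 32274 peaks. It contained 2 HMEC peaks, from 1882771 to 1883356 (585 bp) and from 1885038 to 1886496 (1458 bp). A second HMLER peak followed from 1888709 to 1889893 (1184 bp), and it had no HMEC counterpart. Before them an HMEC peak from 1870325 to 1871106 (781 bp) lay 11216 bp from the nearest HMLER peak. This end of the cluster therefore held UBF of both lines, with some of the peaks in 1 line only.

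In the stretch that follows, most UBF peaks were present in 1 line only. For HMLER peaks this is the common case, since 14.6% of the whole HMLER list overlapped HMEC UBF. Of the whole HMEC list, 56.8% overlapped HMLER UBF. HMEC had 4 UBF peaks in the bin from 1900001 to 2000000, a number reached by 0.764% of all bins, and HMLER had 1. The HMEC peaks ran from 1929076 to 1930537 (1461 bp), from 1931016 to 1931765 (749 bp), from 1960488 to 1961569 (1081 bp) and from 1998174 to 1998885 (711 bp). Only the second of these met the HMLER peak, which ran from 1930610 to 1932285 (1675 bp). The first missed it by 73 bp. The third and the last lay 28203 bp and 8821 bp from HMLER UBF. HMLER had 3 peaks in the next bin, a number reached by 13.95% of all bins, and HMEC had none there. These HMLER peaks ran from 2007706 to 2009035 (1329 bp), from 2038466 to 2039342 (876 bp) and from 2079575 to 2079766 (191 bp).

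In the middle of the chromosome 5 cluster, UBF of the 2 lines lay on the same sites. This group, the only dense one near the middle of the window, where the rule's order puts IRX2, held 4 peaks in each line and no Pol I peak. All 4 HMEC peaks lay wholly inside HMLER peaks. The widest HMEC UBF peak of either cluster lay here, from 2748409 to 2751597 (3188 bp), and ranked 8th by width of 9478. With its neighbour from 2747731 to 2748296 (565 bp) it fell inside the widest HMLER peak of either cluster, from 2747517 to 2753772 (6255 bp), which ranked 22nd of 32274.

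The HMEC peak from 2739227 to 2741205 (1978 bp) lay inside an HMLER peak of nearly the same extent, from 2739044 to 2741363 (2319 bp). The HMEC peak from 2743525 to 2743908 (383 bp) lay in the HMLER peak from 2742809 to 2743943 (1134 bp). A further HMLER peak, from 2754719 to 2757101 (2382 bp), was in the widest 10% of its list and lay 3122 bp beyond the nearest HMEC peak. It was the only HMLER peak above its list's upper quartile of width (1505 bp), in either cluster, without HMEC UBF.

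At the far end of the chromosome 5 window, where the rule lists IRX1, 3 HMEC peaks and 6 HMLER peaks formed the group with the most HMLER peaks. The 3 HMEC peaks ran from 3596324 to 3597935 (1611 bp), from 3598799 to 3600629 (1830 bp) and from 3602024 to 3602973 (949 bp). Each lay inside its own HMLER peak, from 3594009 to 3598217 (4208 bp), from 3598284 to 3601528 (3244 bp) and from 3601762 to 3603645 (1883 bp). HMLER alone went on beyond them, with peaks from 3604561 to 3605041 (480 bp), from 3606300 to 3607079 (779 bp) and from 3612620 to 3613192 (572 bp). These 3 are narrower than the HMLER list's median of 982 bp, whereas the 3 shared ones are wider than its upper quartile.

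Between the middle and far groups of chromosome 5, no UBF peak was common to the lines. Over the whole lists 14.6% of HMLER and 56.8% of HMEC UBF peaks overlapped the other line. The HMEC peak from 3322542 to 3324458 (1916 bp) ranked 63rd by width in its list, yet it had no HMLER peak over it: the nearest, from 3310862 to 3311987 (1125 bp), ended 10555 bp before it. HMLER had lone peaks from 2996256 to 2996820 (564 bp) and from 3475448 to 3475639 (191 bp). The width of 191 bp is the smallest in the HMLER list. It is shared by 293 HMLER peaks, of which 1 overlapped HMEC UBF, and both such peaks of the clusters had none.

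**Figure D2:**
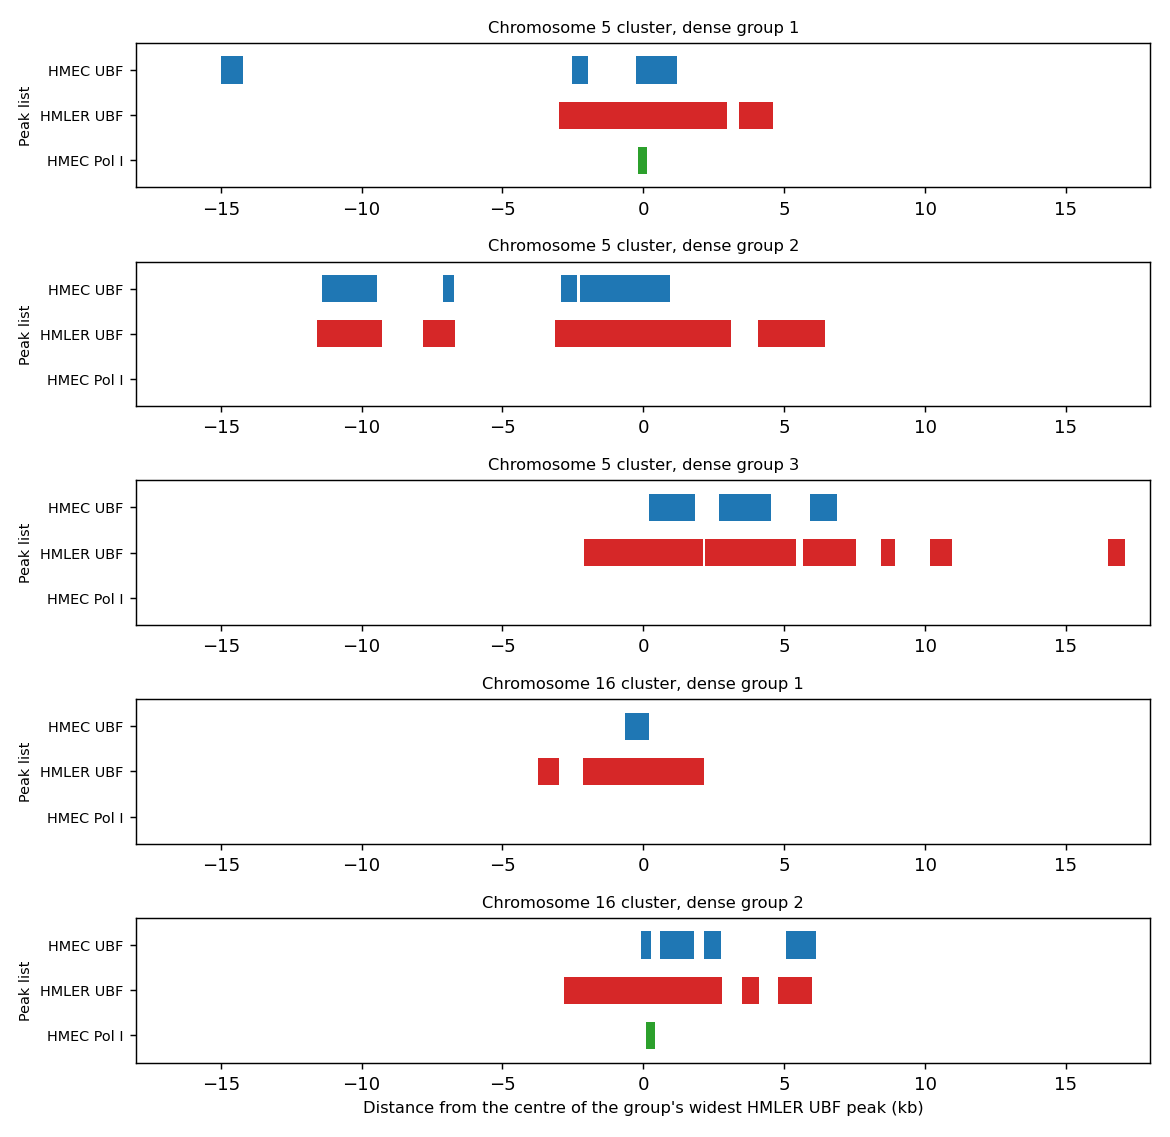
Peaks of the 3 lists (rows, bars drawn to scale) in the 5 dense groups, as the distance in kb from the centre of the widest HMLER UBF peak of each group. HMLER bars of 4208 to 6255 bp lie over 1 to 3 HMEC bars, and a Pol I bar is present in the first group of chromosome 5 and the second of chromosome 16.

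The chromosome 16 cluster had fewer peaks and the same arrangement of wide HMLER peaks over narrower HMEC ones. At its start, where the rule lists IRX3, the HMLER peak from 54317512 to 54321815 (4303 bp) contained the HMEC peak from 54318997 to 54319867 (870 bp). The covered length was 4.95 times as large in HMLER, the highest ratio at any shared site of the clusters. A further HMLER peak, from 54315908 to 54316673 (765 bp), stood before it without HMEC UBF. The next HMEC peak, from 54376338 to 54376801 (463 bp), lay 54523 bp from HMLER UBF, and the HMLER peak from 54480165 to 54481040 (875 bp) lay 103364 bp from HMEC UBF.

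The densest place on chromosome 16 lay in the bin from 54900001 to 55000000, near the middle of the window, where the rule's order puts IRX5. The bin held 4 HMEC UBF peaks, 3 HMLER UBF peaks and 1 Pol I peak. Over all chromosomes, counts at least as high were found in 0.764%, 13.95% and 22.7% of bins, in that order. The HMLER peak from 54962283 to 54967892 (5609 bp, 45th by width) contained 3 HMEC peaks, from 54965010 to 54965364 (354 bp), from 54965677 to 54966870 (1193 bp) and from 54967237 to 54967843 (606 bp). HMLER reached 2727 bp further than HMEC on the low-coordinate side of this site and 49 bp further on the other. Of the 4700 sites shared by the 2 lines over all chromosomes, 75 (1.6%) joined 3 or more HMEC peaks.

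The HMEC peak from 54970163 to 54971225 (1062 bp) and the HMLER peak from 54969881 to 54971060 (1179 bp) overlapped in part. This was the only shared site of the clusters where HMEC UBF reached beyond HMLER UBF, and 897 bp of the HMEC peak lay under the HMLER peak. Between these sites HMLER had a peak from 54968593 to 54969183 (590 bp) without HMEC UBF. Further on, the HMEC peak from 55034374 to 55034804 (430 bp) lay inside the HMLER peak from 55034202 to 55035180 (978 bp). The HMEC peak from 55053251 to 55054105 (854 bp) lay 18071 bp from HMLER UBF and was the last UBF peak of the window.

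Counted over both clusters, more of the HMLER UBF peaks were common to the lines than in the list as a whole, and for HMEC peaks the direction depended on how overlap was defined. Of the 23 HMEC UBF peaks, 16 (69.6%, interval 47.1 to 86.8) overlapped an HMLER UBF peak, against 56.8% of the whole list, which lies within the interval. Counting peaks with a centre within 1000 bp instead turned the direction, at 47.8% (11 of 23) against 54.5% of the list. With every peak set to 500 bp the shares were 43.5% and 41.1%. By overlap, the count was 10 of 15 on chromosome 5 and 6 of 8 on chromosome 16. Of the 26 HMLER peaks, 12 (46.2%, 26.6 to 66.6) overlapped HMEC UBF, against 14.6% of the whole list. The count was 8 of 19 on chromosome 5 and 4 of 7 on chromosome 16, with intervals of 20.3 to 66.5% and 18.4 to 90.1%, so the clusters could not be told apart by these shares. The HMLER share also depends on the peak numbers of the 2 lists, and is not separate from their ratio. HMLER had 1.13 times as many UBF peaks as HMEC in the clusters and 3.41 times as many over the lists.

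In the clusters, wide HMLER peaks were shared with HMEC more often than narrow ones. Of the 10 HMLER peaks of the clusters wider than the list's upper quartile, 9 overlapped HMEC UBF (90%, 55.5 to 99.7), against 37.1% of all such HMLER peaks. Of the 16 narrower ones, 3 did (18.8%, 4.05 to 45.6), against 7.17%. In HMEC the share was higher among the narrower peaks, with overlapping intervals. Of the 7 HMEC peaks at or under their list's upper quartile, 6 overlapped HMLER UBF (85.7%, 42.1 to 99.6), against 54.7% of the list. Of the 16 HMEC peaks above that quartile, 625 bp, 10 overlapped HMLER UBF (62.5%, 35.4 to 84.8), against 62.9%. Of the 11 in the widest 10% of the HMEC list, 8 did (72.7%, 39.0 to 94.0), against 57.3%.

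HMEC UBF peaks in the Iroquois clusters were wide for their list. HMLER UBF peaks were so less often, and on chromosome 16 only 3 of 7 were above their list's median. In HMEC, 19 of 23 were wider than the list's median of 469 bp, and 11 of 23 were in the widest 10% of the list, above 880 bp. The median was 1081 bp on chromosome 5 (383 to 3188 bp) and 730 bp on chromosome 16 (354 to 1193 bp). In HMLER, 15 of 26 were above the list's median and 8 of 26 in its widest 10%, above 2123 bp. The medians were 1184 bp on chromosome 5 (191 to 6255 bp) and 978 bp on chromosome 16 (590 to 5609 bp), against 982 bp in the list. Pol I peaks were from 251 to 345 bp wide, against a list median of 290 bp. Of the 5, 4 were above that median, 2 above the upper quartile of 319 bp and 0 in the widest 10% of their list.

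**Figure D3:**
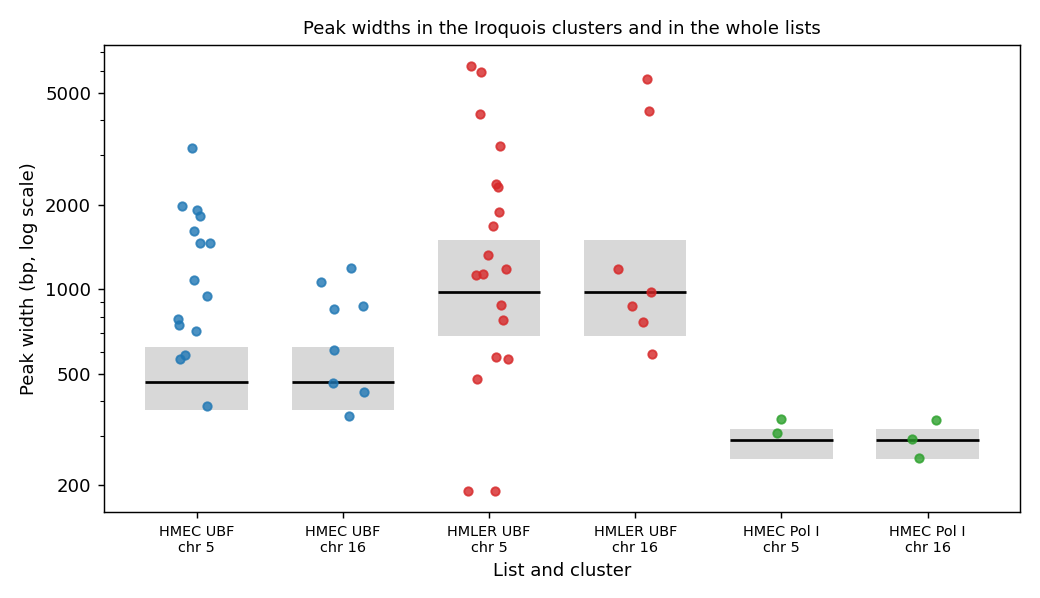
Width of every peak of the clusters (points, log scale in bp) by list and chromosome, with the median (black line) and quartiles (grey band) of the whole list behind each column. Of the HMEC UBF points 16 of 23 lie above the grey band, of the HMLER UBF points 10 of 26 and of the Pol I points 2 of 5. The 5 Pol I points lie between 251 and 345 bp.

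Joining the HMEC and HMLER peaks that overlap gave 33 UBF sites in the clusters, 12 shared, 7 in HMEC only and 14 in HMLER only. The shared sites were 36.4% of the 33, against 12.9% of the 36331 sites over all chromosomes. This share too depends on the peak numbers, with 1.13 HMLER peaks per HMEC peak in the clusters and 3.41 over the lists. At all 12 shared sites HMLER peaks covered more than HMEC peaks, by 1.11 to 4.95 times, as they did at 98.5% of all shared sites. The median ratio was 2.26, and over all 4700 shared sites it was 2.93 with quartiles of 2.13 and 4.17, so 10 of the 12 lay below that median. At 11 of the 12 every HMEC base lay inside an HMLER peak, and over all chromosomes this held at 84.7%. More than 1 HMEC peak was joined at 3 of the 12 sites (25%), against 12.6% over all chromosomes. None of the 12 joined more than 1 HMLER peak, which 0.553% of all shared sites did.

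**Figure D4:**
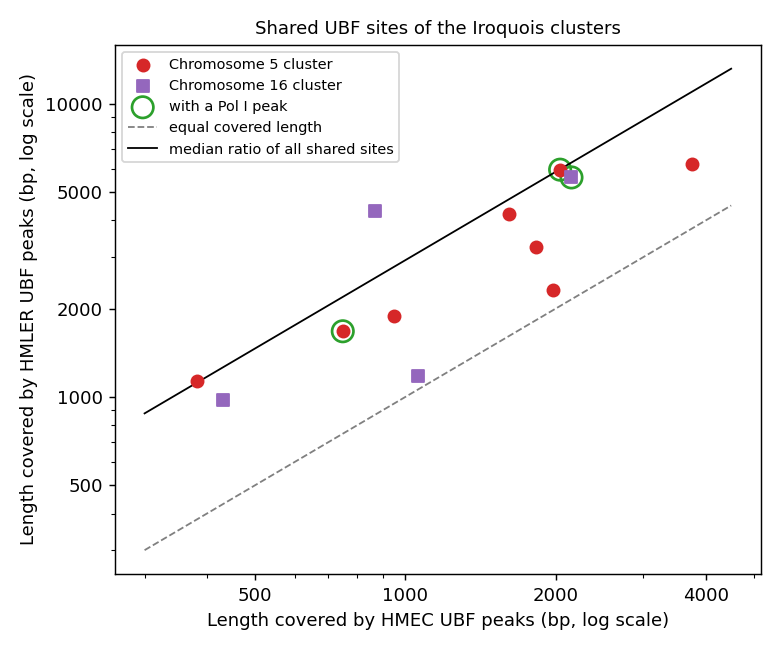
Length covered by HMLER UBF peaks against length covered by HMEC UBF peaks at the 12 shared sites (log scales, in bp), with circles for chromosome 5, squares for chromosome 16 and green rings for sites with a Pol I peak. All 12 points lie above the dashed line of equal length, and 10 lie below the solid line that marks the median ratio of 2.93 over all shared sites.

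Of the 5 Pol I peaks in the clusters, 3 lay on UBF. Over the whole Pol I list 2.86% of peaks overlapped UBF in HMEC, 12.4% overlapped UBF in HMLER and 2.09% overlapped both. In the clusters the same 3 peaks overlapped both (60%, 14.7 to 94.7). Seen from UBF, 3 of 23 HMEC peaks (13.0%, 2.78 to 33.6) and 3 of 26 HMLER peaks (11.5%, 2.45 to 30.2) had Pol I, against 2.72% and 3.47% of the lists. With 5 peaks the intervals are wide.

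The Pol I peaks on UBF stood at the IRX4 end of the chromosome 5 window and near the middle of the chromosome 16 window. The first, from 1885121 to 1885428 (307 bp), lay wholly inside the HMEC UBF peak of 1458 bp, and its centre was 28.5 bp from that of the HMLER peak of 5962 bp. The second, from 1931460 to 1931805 (345 bp), had 305 bp inside the HMEC peak of 749 bp and all of its length inside the HMLER peak of 1675 bp. The third, from 54965196 to 54965489 (293 bp), had 168 bp inside the HMEC peak of 354 bp and all of its length inside the HMLER peak of 5609 bp. All 3 were thus at shared UBF sites, and the other 9 shared sites and all 21 sites of 1 line had no Pol I peak.

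The remaining 2 Pol I peaks lay in the part of the chromosome 16 window without UBF of either line. They ran from 55090467 to 55090809 (342 bp) and from 55142324 to 55142575 (251 bp). The nearest HMEC UBF peak was 36.4 kb and 88.2 kb away, and the nearest HMLER UBF peak 55.3 kb and 107 kb. Most Pol I peaks lie off UBF: over the list 2.86% overlapped HMEC UBF and 12.4% HMLER UBF. On chromosome 5 the groups in the middle and at the far end, with 7 HMEC and 10 HMLER UBF peaks, had no Pol I peak. That too is the common case: over the lists 2.72% of HMEC and 3.47% of HMLER UBF peaks overlapped Pol I. The middle group began 807239 bp after the last Pol I peak of the window.

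The ends of the windows fall between peaks. The HMEC UBF peak nearest to the start of the chromosome 5 window has its centre 20.7 kb inside and the nearest outside 287 kb away. For HMLER these distances were 35.3 and 41.5 kb. At the far end the HMEC distances were 47.5 and 136 kb and the HMLER distances 37.1 and 434 kb. On chromosome 16 the first peaks lay 19.4 kb (HMEC) and 16.3 kb (HMLER) inside, with 831 and 130 kb to the nearest outside. At the end of that window the last peaks lay 346 and 365 kb inside, with 99.7 and 5.11 kb to the nearest outside.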

How the data were processed

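Peaks were called by the authors, who deposited 1 list per antibody and cell line with chromosome, start and end. The submitters' processing notes name BWA, Picard and CASAVA 1.8.2, with hg19 as the human build. Which caller, threshold and filters made the peaks is not stated in the labels or headers, nor is the counting origin of the coordinates, which are printed as deposited. The 7 mouse lists were not used. Lines were split at carriage returns. A peak belonged to a window by its centre, and was shared if at least 1 bp lay under a peak of the other list. Densities are per Mb up to the last peak end of each chromosome in the 3 lists, unplaced contigs left out. Tiles and 100-kb bins are fixed grids counted by peak centre. Python 3.11.15, NumPy 2.4.6 and SciPy 1.17.1 were used, and the overlap code was tested on simulated data. The windows, rules and alternatives were chosen with earlier results of these data known. Named peaks followed a rule: all HMEC peaks of a cluster (if 15 or fewer), all Pol I peaks, the 5 widest HMLER peaks, all shared peaks (if 10 or fewer) and the 3 groups with most HMLER peaks. The remaining HMLER peaks were few and were added after their values were seen, as were the divisions by width, tiles, joined sites and the whole-list values beside groups and bins. The condition that gives peaks to genes, and the lists of neighbouring and other TALE genes, could not be applied without an hg19 annotation. The alternatives were other overlap definitions, a fixed peak width, shifted windows and the wider peaks of each list.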

Additional observations from a re-analysis of the deposited data

How the results depend on the processing

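The alternatives were run for counts, densities, covered length and median width of each list and cluster, and for the shares of overlap over both clusters. Of their 115 values, 100 stayed within 1.5 times the reported value, or for a share within its interval, and 15 did not. This tally does not measure stability, since many values could hardly move. A count and its density differ only by the window length. The Pol I shares, of 5 peaks, stay within their interval anywhere from 14.7 to 94.7%. Counting a peak with any base in the window changed no value, since no peak crosses a window end. Lengthening the windows by 50 kb at each end moved none past the limit of 1.5 times. Shortening them by 50 kb left 1 Pol I peak on chromosome 5 (0.588 per Mb, 0.0203% covered). UBF counts fell too, though within the limit. On chromosome 5 they were 11 in HMEC (6.47 per Mb) and 13 in HMLER (7.65 per Mb). On chromosome 16 they were 7 in HMEC (7 per Mb) and 5 in HMLER (5 per Mb). HMLER UBF on chromosome 5 was then below the 10.5 per Mb of its list. Keeping the 50% widest peaks of each list left 12 HMLER peaks on chromosome 5 (6.67 per Mb, median 2101 bp), 3 on chromosome 16 (2.73 per Mb, median 4303 bp) and 5 HMEC peaks on chromosome 16 (4.55 per Mb). This setting shortens the whole lists as well, to 16144 HMLER and 4752 HMEC UBF peaks. The density of the shortened lists was not computed, so these values do not show whether the windows are denser than their lists. With every peak set to 500 bp, 43.5% of HMEC UBF peaks (10 of 23) overlapped HMLER UBF, against 41.1% of the whole list, and with a centre within 1000 bp it was 47.8% (11 of 23) against 54.5%, so the direction against the list turned. The share of HMLER peaks with HMEC UBF was 19.2% (5 of 26) with at least 50% of the peak covered, against 2.63% of the list. It was 90% (9 of 10) when only the 9478 widest HMLER peaks were kept, against 34.3%, and 66.7% (10 of 15) among the 50% widest, against 16.5%. Without read counts, depth could not be used to judge any peak, and 1 list per line gives no spread between cultures.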
